A study of Mus musculus with 8 samples.

Results

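The DNA replication machinery was followed as 48 genes of 49585 gene IDs in the deposited table. The rule that names them rests on textbook roles and uses no measured value, but it was proposed with earlier results of these data known. They cover origin recognition and loading (8 genes), the MCM helicase core (6), helicase activation (6), polymerases and primase (9), the sliding clamp with its loader and Okazaki fragment joining (8), the single-strand binding protein (3), nucleotide supply (4), S-phase entry (3) and the Pif1 helicase (1). All 48 were detected, at means over the 8 libraries of 1249 to 72646 normalized counts, and none fell to the filter on low values (a mean of 10).

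The libraries come from LEC, a line of SV40-immortalized hepatic endothelial cells of C57BL/6 mice, and from siL-DHX15-LEC, the same line infected with a lentivirus that carries a shRNA against Dhx15 under a doxycycline-driven Tet-On promoter. Dhx15 encodes an RNA helicase that takes spent spliceosomes apart. The labels call the wild-type cells untreated, and no library has the vector and doxycycline without the silencing shRNA, so that effects of either cannot be told apart from silencing. Each condition had 4 libraries of polyadenylated RNA. The study calls them biologically independent samples, but nothing in the labels ties them to separate cultures, so p-values measure the spread between these libraries only. The LEC are an immortalized line: SV40 large T antigen is known to bind the retinoblastoma proteins and p53, which otherwise hold back S-phase genes. Being bulk RNA, the libraries do not tell fewer cells in S phase apart from less RNA per cell. The study reported a lower uptake of BrdU, a label of DNA synthesis, in siL-DHX15-LEC than in control LEC. That assay was not analysed here.

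A cell copies its genome once per cycle. In G1 phase, the origin recognition complex (ORC) with Cdc6 and Cdt1 places the ring of Mcm2 to Mcm7 on DNA; in S phase, Cdc45 and the GINS complex turn this ring into a running helicase, and polymerases alpha, delta and epsilon copy the strands. Many of these genes are known to be switched on together in late G1 phase by E2F transcription factors, and cyclin E with its kinase starts the process.

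Dhx15 itself was 26824, 27952, 26430.4 and 28006 normalized counts in the wild-type libraries and 8936, 7956, 8929.9 and 10051 in the silenced ones (limma, log2 fold change -1.61, SE 0.0592, adjusted p = 3.32e-08), so the labels held in every library. Silenced replicate 4 kept the most Dhx15. Reads recovered per library were 118830467 to 152045693 in wild-type LEC and 77335734 to 149258495 in siL-DHX15-LEC. The wild-type libraries ran in lanes 4 and 1 and the silenced ones in lanes 5 and 2; lane cannot be told apart from condition. Of 14 endothelial markers, 6 were under a mean of 10 normalized counts (Cdh5, Tek, Tie1, Emcn, Erg and Cldn5), as were 7 of 13 sinusoidal and lymphatic ones, among them Stab2, Lyve1 and Clec4g. The other 8 endothelial markers were at or above 10, and the 14 summed to 3706 to 3910 in wild-type and 3591 to 3887 in silenced libraries. The other 6 sinusoidal and lymphatic ones were also above it, mainly Gata4 and Pdpn, and the 13 summed to 16204 to 17699.8 and 16926 to 17872. The study characterized the line by the proteins CD31 and eNOS, lipoprotein uptake, LYVE-1 and podoplanin, assays not analysed here. In wild-type LEC the RNA of Pecam1 (CD31) was at 25.2 ± 5.77 normalized counts, that of Nos3 (eNOS) at 55.7 ± 3.44 and that of Pdpn (podoplanin) at 7449 ± 375. The endothelial markers were thus present in part and at low levels, Flt1 being the highest of the 14 at 1716 ± 92.0 in wild-type LEC. Of the mesothelial markers in wild-type LEC, Krt8 was at 94877 ± 7024, Msln at 23374 ± 702 and Wt1 at 5047 ± 200. Gpm6a and Lrrn4 were low (179 ± 17.0 and 15.4 ± 4.02). What these levels say of the identity of the line was not tested. The 9 mesothelial markers summed to 218477 to 255263 in wild-type and 250253 to 275798 in silenced libraries. The 22 hepatocyte markers summed to 9488 to 10202 and 6908 to 7734, and the 11 mesenchymal and stellate markers to 58618 to 59409 and 49506 to 51376. Trf made up most of the hepatocyte sum (6582 ± 349 in wild-type and 5493 ± 357 in silenced libraries). Alb was at 560 ± 66.0 and 0.4725 ± 0.945, and Rbp4 rose from 1561 ± 63.7 to 1742 ± 46.6. Ttr, Fga, Fgb, Serpina1a, Serpina1b, Mup3, Mup7 and Mup20, at means of 35.9 to 152 in wild-type, were at 0 in silenced libraries. Among the mesothelial markers Krt19, Krt8 and Krt18 were higher on average in silenced libraries and the others lower. The part of these markers in the results on replication genes was not tested.

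Of the 48 replication genes, 17 were higher and 10 lower in siL-DHX15-LEC than in wild-type LEC at an adjusted p of 0.05, and 21 did not pass. Over all 16497 genes tested the same test called 33.2% (18.4% higher and 14.8% lower). All members had a mean above 1000 normalized counts, and among the 9339 genes at that level it called 40.5% (26.4% higher and 14.0% lower). The median log2 fold change was 0.04 over the members and -0.01 over all genes. In 25 members the libraries of the conditions did not overlap, 17 with silenced libraries above and 8 with them below, against 30.8% of all genes (17.6% above and 13.2% below). The share without overlap among genes with a mean of at least 1000 is not given here, so this count has no background matched for level. The changes were small: the largest rise was that of Cdt1 (log2 fold change 0.33) and the largest fall that of Pif1 (-0.67). Rescaling the libraries to equal totals changed the split to 10 higher and 13 lower. Subtracting each library's trend with gene length, GC content and abundance changed it to 11 higher and 16 lower. Each of the 27 called genes kept its sign under both. Under equal totals the median log2 fold change was -0.024 over the members and -0.076 over all genes. With the trend subtracted these medians were -0.011 and -0.000117. The shares of all genes called under these 2 settings are not given here, so the splits have no background. When any 1 library was left out, 17 of the 27 kept their call each time, and the other 10 are named with their values in the paragraphs on their roles.

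**Figure D1:**
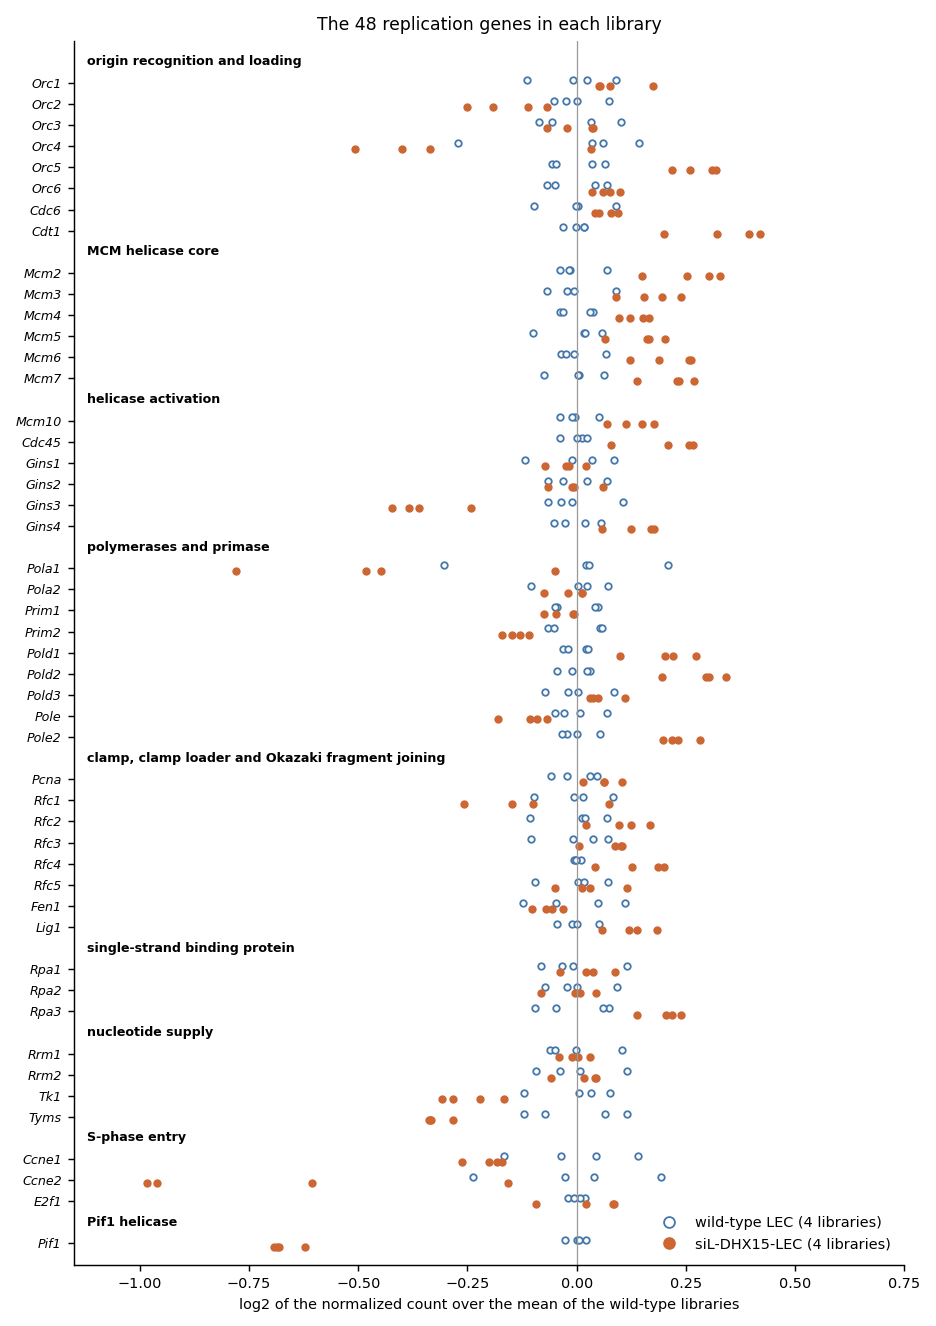
Each point is a library: the log2 of a gene's normalized count over the mean of the 4 wild-type libraries, for the 48 replication genes grouped by role (open blue, wild-type LEC; filled orange, siL-DHX15-LEC). All 6 genes of the MCM helicase core have every silenced library above every wild-type one, and Pif1 has the tightest and most separate fall.

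The MCM helicase core rose as a whole. All 6 genes, which encode the ring of the replicative helicase, were higher in siL-DHX15-LEC, by 0.13 to 0.26 on the log2 scale (median 0.19), and in none did the libraries overlap. Mcm2 was measured at 69349.8, 64400.2, 65441 and 65270.2 normalized counts in wild-type and 83037, 81540.1, 78826 and 73303 in silenced libraries (log2 fold change 0.26, SE 0.0444, adjusted p = 0.00123). Mcm6 was at 38871, 36176, 36460.2 and 36938 in wild-type and 44472, 44374, 42285 and 40406 in silenced libraries (log2 fold change 0.21, SE 0.0409, adjusted p = 0.00272). Mcm7 was at 50777, 46141, 48738 and 48719 in wild-type and 56998, 58558, 57190.2 and 53504 in silenced libraries (log2 fold change 0.22, SE 0.0407, adjusted p = 0.00197). In all 3 genes wild-type replicate 1 was the highest of its condition and silenced replicate 4 the lowest, and the gap between the conditions lay between those libraries. Mcm3, Mcm4 and Mcm5 rose less (log2 fold changes 0.17, 0.13 and 0.15, adjusted p = 0.0112, 0.011 and 0.0206). The Mcm5 call was lost without silenced replicate 1, 2 or 3 (adjusted p 0.0573 to 0.0608). With equal totals the median of the 6 was 0.12, and 4 passed. With the length, GC and abundance trend subtracted it was 0.083, and 4 passed, Mcm3 and Mcm5 being lost at log2 fold changes of 0.04 and 0.02.

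Per kilobase of transcript, the order of the levels in wild-type LEC was Mcm7 (20635 ± 934 normalized counts per kb, SD, n = 4), Mcm2 (19723 ± 667), Mcm5 (15324 ± 697), Mcm3 (15206 ± 671), Mcm6 (12735 ± 413) and Mcm4 (9579 ± 269.6). Mcm7 and Mcm2 overlapped between libraries, as did Mcm5 and Mcm3, and the other neighbours in the order did not. In siL-DHX15-LEC the same neighbours overlapped, and the levels ran from 24429 ± 774 for Mcm7 to 10512 ± 225 for Mcm4. The protein ring holds each subunit in equal number, whereas the transcripts differed 2.15-fold between Mcm7 and Mcm4 on this scale. The fold changes of the 6 genes lay within 0.12 of each other on the log2 scale, a range that no scaling of the libraries can alter. Counting only subunits among the members, complexes with at least 3 had ranges of 0.57 over the 6 of ORC and 0.48 over GINS. The range was 0.25 over the clamp loader, 0.23 over polymerase delta and 0.21 over replication protein A. Between pairs of member subunits it was 0.41 in polymerase alpha, 0.34 in polymerase epsilon, 0.10 in primase and 0.016 in ribonucleotide reductase. The last 2 were narrower than in the MCM core.

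**Figure D2:**
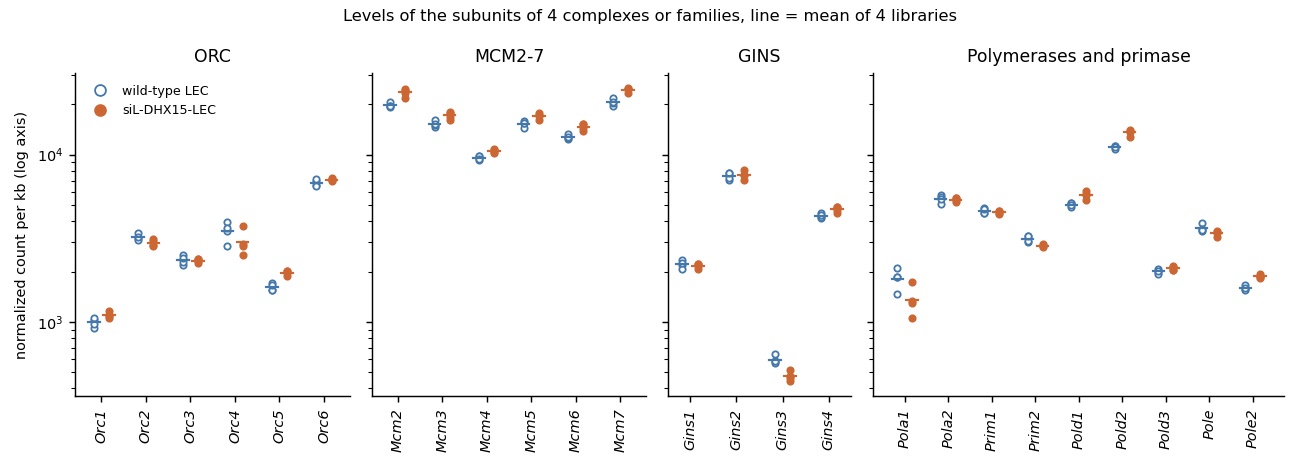
Normalized counts per kb (log axis) of the subunits of ORC, the MCM ring, GINS and the polymerases with primase, each point a library and each line the mean of 4 (open blue, wild-type LEC; filled orange, siL-DHX15-LEC). The 6 MCM genes move up together, while Gins3 moves down and Gins4 up, and Pole down and Pole2 up.

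Promoters of these genes are shown because the MCM genes moved together. RefSeq promoter windows on GRCm38.p6 (300 bases, 250 before and 50 from the start of transcription) were held for 39 of the 48 genes; Mcm4, Gins1, Gins2, Gins4, Prim2, Pole, Rfc2, Ccne2 and Pif1 had none. An E2F word (TTTCGCGC, TTTGGCGC, TTTCCCGC or TTTGCCGC, on either strand; words on opposite strands can overlap) was found in 15 of the 39 windows, against 2.26% of all 32851 windows and 3.79% of the 13851 windows of genes tested here. Among the members it was in 8 of 15 that rose, 2 of 6 that fell (Gins3 and Pola1) and 5 of 18 that did not pass, including Orc1 and Cdc6. In the MCM core 4 of the 5 windows had it (Mcm3, Mcm5, Mcm6 and Mcm7) and Mcm2 did not. The start used for Mcm7 lay 539 bases from the 5' end of its most abundant isoform. That window lay within the span of this isoform, so it does not cover the bases before its start. For E2f1 the distance was 466 bases. The CCAAT box (CCAAT, either strand) was in all 5 windows of the MCM core, against 37.4% of all windows. It was not particular to that core: 22 of the 39 member windows had it, among them 10 of 18 that did not pass. All 3 windows of helicase activation and all 3 of the single-strand binding protein had it too. Neither Tyms nor Tk1, which both fell, had an E2F word in its window. The 160 bases before the start are printed for 4 MCM genes that rose and for Pola1 and Tyms, which fell, with E2F words and CCAAT boxes in capitals. The regions are chr6:88898781-88898940 (- strand), chr1:20820313-20820472 (- strand), chr8:75109349-75109508 (+ strand), chr1:128359706-128359865 (- strand), chrX:93632156-93632315 (- strand) and chr5:30073626-30073785 (- strand).
Mcm2: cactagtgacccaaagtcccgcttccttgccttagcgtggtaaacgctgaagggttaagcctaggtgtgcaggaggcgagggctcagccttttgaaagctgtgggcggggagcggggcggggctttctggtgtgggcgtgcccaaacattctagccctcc
Mcm3: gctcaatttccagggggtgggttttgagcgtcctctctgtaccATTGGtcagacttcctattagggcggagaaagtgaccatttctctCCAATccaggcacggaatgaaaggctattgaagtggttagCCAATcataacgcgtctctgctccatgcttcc
Mcm5: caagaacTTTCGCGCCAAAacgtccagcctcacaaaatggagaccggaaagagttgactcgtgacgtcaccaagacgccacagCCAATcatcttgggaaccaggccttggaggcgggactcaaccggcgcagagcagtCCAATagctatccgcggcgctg
Mcm6: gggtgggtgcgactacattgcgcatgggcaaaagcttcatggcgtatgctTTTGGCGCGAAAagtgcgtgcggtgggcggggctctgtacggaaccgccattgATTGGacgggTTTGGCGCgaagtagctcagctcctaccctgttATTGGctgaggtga
Pola1: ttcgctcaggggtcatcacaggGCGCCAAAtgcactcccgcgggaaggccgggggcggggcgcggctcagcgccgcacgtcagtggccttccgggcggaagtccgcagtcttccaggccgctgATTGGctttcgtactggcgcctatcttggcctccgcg
Tyms: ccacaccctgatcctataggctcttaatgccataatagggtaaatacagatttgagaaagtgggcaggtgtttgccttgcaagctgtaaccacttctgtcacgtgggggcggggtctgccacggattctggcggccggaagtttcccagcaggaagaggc

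In Mcm5 the words TTTCGCGC and TTTGGCGC overlap on opposite strands, 153 bases before the start, and in Mcm6 a like pair lies at 110 bases and a further TTTGGCGC at 47 bases before it. The E2F words of Mcm3 lie after the start, outside the printed bases. Mcm2, with no E2F word and its CCAAT box outside the printed bases, had the largest rise of the 6 genes. Pola1 carries TTTGGCGC on the opposite strand 138 bases before its start and fell. A word in a window is a description of the letters and says nothing of binding.

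Among the genes of origin recognition and loading, 2 rose, 1 fell and 5 did not pass. Cdt1, the loading factor that geminin blocks after licensing, was at 18878, 18879.6, 18638 and 18249 normalized counts in wild-type and 24982, 24539, 23333 and 21436 in silenced libraries (log2 fold change 0.33, SE 0.0465, adjusted p = 0.000339). Orc5, a subunit of the ring of ORC, was at 3508, 3221, 3241 and 3434 in wild-type and 4155, 4179.6, 3901 and 4013 in silenced libraries (log2 fold change 0.28, SE 0.0436, adjusted p = 0.000723). Orc2, another subunit, was at 7936, 8501, 7792 and 8077 in wild-type and 7473, 6789, 7073 and 7707 in silenced libraries (log2 fold change -0.15, SE 0.0466, adjusted p = 0.0244). In none of the 3 did the libraries overlap. The Orc2 call was lost without wild-type replicate 2 or 4 or silenced replicate 2 or 3 (adjusted p 0.0603 to 0.0746). The ratio of Orc5 to Orc2 was 0.416 ± 0.0267 in wild-type LEC and 0.561 ± 0.0397 in siL-DHX15-LEC, a pair chosen after the values were seen. Orc4 was lower on average (log2 fold change -0.29, adjusted p = 0.0603) and did not pass: wild-type replicate 1 (4688) lay below silenced replicate 4 (5788). It passed as lower under equal totals (adjusted p = 0.0445), with the trend subtracted (log2 fold change -0.15, adjusted p = 0.00457), with DESeq2 on recovered reads, with protein-coding isoforms alone, and without wild-type replicate 1 or silenced replicate 4. Orc1, Orc3, Orc6 and Cdc6 had log2 fold changes of 0.09, -0.002, 0.07 and 0.07 and did not pass. Per kb, Orc6 was the most abundant ORC subunit (6795 ± 294 normalized counts per kb in wild-type LEC) and Orc1 the least (993 ± 57.4).

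Of the genes that activate the helicase, Mcm10, Cdc45 and Gins4 rose, Gins3 fell, and Gins1 and Gins2 did not pass. Cdc45, which joins the MCM ring in the running helicase, was at 9906, 9570.4, 9825 and 9991 normalized counts in wild-type and 11811, 11744, 11361 and 10371 in silenced libraries (log2 fold change 0.20, SE 0.0441, adjusted p = 0.00476). Mcm10, which binds the assembled helicase as it starts, was at 12658, 11909.8, 12187 and 12129.5 in wild-type and 13826, 13554, 13207 and 12833 in silenced libraries (log2 fold change 0.13, SE 0.0364, adjusted p = 0.0191). Gins3, encoding the Psf3 subunit of GINS, was at 1507, 1338, 1366 and 1389 in wild-type and 1073, 1045, 1090.1 and 1184 in silenced libraries (log2 fold change -0.35, SE 0.0574, adjusted p = 0.00094). No library of a condition crossed into the other for any of the 3, although silenced replicate 4 was the nearest to wild-type each time. The GINS complex holds 1 copy of each of its 4 subunits, yet the ratio of Gins3 to Gins4 was 0.241 ± 0.00605 in wild-type LEC and 0.173 ± 0.0162 in siL-DHX15-LEC. Gins4 rose by 0.13 (adjusted p = 0.0265), and Gins1 and Gins2 had log2 fold changes of -0.02 and -0.005. The Gins4 call was lost without wild-type replicate 2, 3 or 4 or silenced replicate 1, 2 or 3 (adjusted p 0.0549 to 0.0808), and that of Mcm10 without wild-type replicate 3 or 4 or silenced replicate 1 or 2 (adjusted p 0.0509 to 0.0645). Per kb, Gins3 was 12.6-fold below Gins2 in wild-type LEC (594 ± 33.1 against 7453 ± 385 normalized counts per kb).

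Of the 9 polymerase and primase genes, 3 rose, 3 fell and 3 did not pass. Polymerase delta copies the lagging strand, and its catalytic subunit Pold1 and its partner Pold2 both rose. Pold2 was at 18328, 17369, 18236 and 17796 normalized counts in wild-type and 22117, 22723, 22023 and 20539.5 in silenced libraries (log2 fold change 0.28, SE 0.0387, adjusted p = 0.000301). Pold1 was at 16722, 16128, 16773 and 16258 in wild-type and 19195, 19912, 18937 and 17646 in silenced libraries (log2 fold change 0.20, SE 0.0404, adjusted p = 0.00326). Within polymerase epsilon, which copies the leading strand, the subunits among the members went apart. Pole2, its second subunit, was at 2824, 2682, 2659.6 and 2721 in wild-type and 3197, 3309.6, 3122 and 3164 in silenced libraries (log2 fold change 0.23, SE 0.0399, adjusted p = 0.00123). Pole, the catalytic subunit, was at 24769.5, 22794, 23714 and 23152 in wild-type and 22538, 22168, 21913 and 20838 in silenced libraries (log2 fold change -0.11, SE 0.0386, adjusted p = 0.0452). None of these 4 genes overlapped between conditions, but the Pole call was lost without each library in turn other than wild-type replicate 2 (adjusted p 0.0558 to 0.102). The ratio of Pole to Pole2 was 8.67 ± 0.205 in wild-type LEC and 6.84 ± 0.231 in siL-DHX15-LEC, with no overlap. Pole3 and Pole4, further subunits of polymerase epsilon outside the members, had log2 fold changes of 0.05 and 0.08 and did not pass.

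In polymerase alpha, which lays the first bases of each fragment, Pola1 fell and Pola2 did not pass (log2 fold change -0.02). Pola1, the catalytic subunit, was at 7756, 11063, 9703 and 9749.5 normalized counts in wild-type and 6849, 5569.8, 7011 and 9241 in silenced libraries (log2 fold change -0.43, SE 0.135, adjusted p = 0.0294). Its libraries overlapped: wild-type replicate 1 was low for its condition and silenced replicate 4 high. Its call was lost without wild-type replicate 2, 3 or 4 or silenced replicate 1, 2 or 3 (adjusted p 0.0629 to 0.0818), and under DESeq2 on recovered reads (adjusted p = 0.0709). Pola1 has a long transcript of low GC content (5336 bases and 41.5%, against medians of 2520.5 bases and 50.4% over all genes), and with the length, GC and abundance trend subtracted it still passed at a log2 fold change of -0.31 (adjusted p = 0.00662). Prim2, the large subunit of primase, fell by 0.14 (adjusted p = 0.0216), a call lost without wild-type replicate 4 or silenced replicate 3 (adjusted p 0.0718 to 0.0780). Prim1, the catalytic subunit of primase, did not pass (-0.03), nor did Pold3 (0.06).

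Of the 8 genes of the clamp, its loader and fragment joining, 2 rose and limma called 0 as lower, as did edgeR and DESeq2 on recovered reads, with 0 lower at an unadjusted p under 0.05. Pcna, the sliding clamp and the most abundant member per kb (24015 ± 789 normalized counts per kb in wild-type LEC), had a log2 fold change of 0.06 and did not pass. Rfc4, a subunit of the clamp loader, was at 5203, 5152, 5163 and 5162 normalized counts in wild-type and 5878, 5939.9, 5646 and 5324 in silenced libraries (log2 fold change 0.14, SE 0.0411, adjusted p = 0.0225). Lig1, the ligase that seals Okazaki fragments, was at 19291, 18033, 18467 and 18628 in wild-type and 20212, 21142, 20464 and 19380.5 in silenced libraries (log2 fold change 0.13, SE 0.0373, adjusted p = 0.023). Neither overlapped between conditions, and both lay lowest in silenced replicate 4. Rfc2, the third by p, was at 12212, 10818, 11741 and 11806 in wild-type and 12454, 13073, 12687 and 11812 in silenced libraries (log2 fold change 0.10, SE 0.0455, adjusted p = 0.101), with overlap. The Rfc4 call was lost without wild-type replicate 3 or 4 or silenced replicate 1, 2 or 3 (adjusted p 0.0538 to 0.0704), and that of Lig1 without these or wild-type replicate 2 (adjusted p 0.0527 to 0.0720). Rfc1, Rfc3, Rfc5 and Fen1, the flap nuclease, had log2 fold changes of -0.11, 0.08, 0.03 and -0.06 and did not pass. Fen1 passed as lower under equal totals and with the trend subtracted (log2 fold change -0.18 in the latter).

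Replication protein A, which coats single strands, is a trimer of Rpa1, Rpa2 and Rpa3. Rpa3, its smallest subunit, was at 3917, 4256, 3787 and 4220.0 normalized counts in wild-type and 4771, 4663, 4453 and 4705 in silenced libraries (log2 fold change 0.20, SE 0.0468, adjusted p = 0.00684), without overlap. Rpa1 was at 48110.0, 42004, 43454 and 44225 in wild-type and 45115, 47249, 45595 and 43276 in silenced libraries (log2 fold change 0.03, SE 0.0456, adjusted p = 0.656). Rpa2 was at 7489, 6683, 6917 and 7028 in wild-type and 7012, 7252, 7064 and 6642 in silenced libraries (log2 fold change -0.01, SE 0.0439, adjusted p = 0.916). Both overlapped throughout. The Rpa3 call was lost under equal totals, where Rpa1 turned to -0.04, and both Rpa1 and Rpa2 passed as lower with the trend subtracted (log2 fold change -0.11 in each, adjusted p = 0.0071 and 0.00314).

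**Figure D3:**
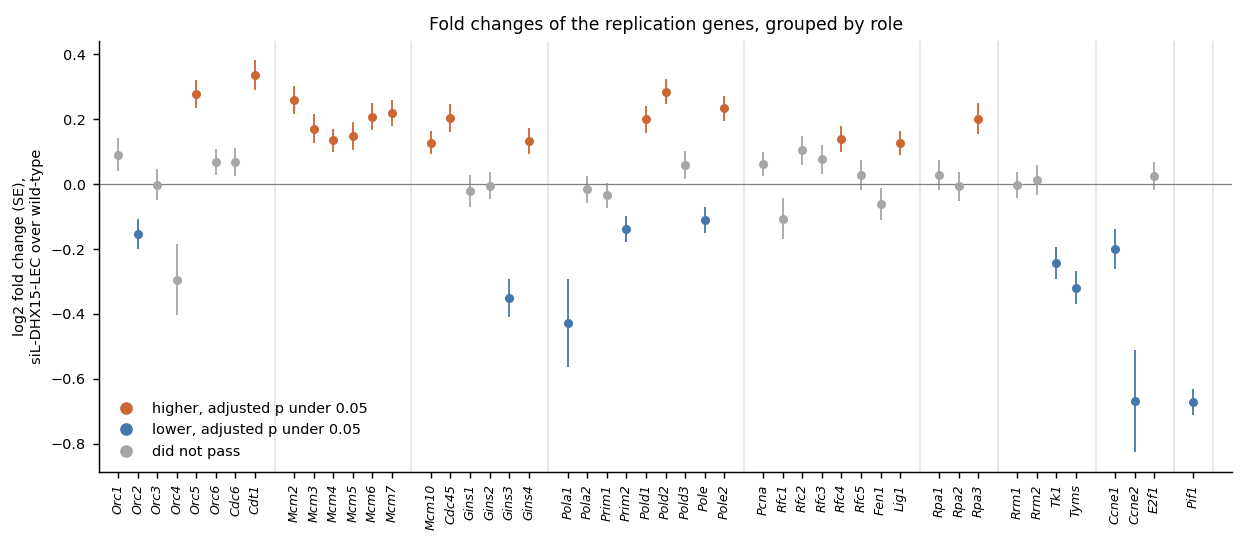
Log2 fold change with its SE from limma for each of the 48 genes, siL-DHX15-LEC over wild-type LEC, grouped by role in the order of the text (orange, higher; blue, lower; grey, did not pass). The MCM genes lie between 0.13 and 0.26, and Pif1, Ccne2 and Pola1 are the deepest falls, the last 2 with the widest errors.

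Transcripts of the enzymes that make thymidylate fell, and those of ribonucleotide reductase did not pass. Tyms, thymidylate synthase, which turns dUMP into dTMP, was at 11121, 9442, 9755 and 10739 normalized counts in wild-type and 8150.0, 8434, 8137 and 8115 in silenced libraries (log2 fold change -0.32, SE 0.0510, adjusted p = 0.00081). Tk1, thymidine kinase, which makes dTMP from salvaged thymidine, was at 15432, 13467, 14687 and 14981 in wild-type and 11816, 13054, 12564 and 12030.4 in silenced libraries (log2 fold change -0.24, SE 0.0481, adjusted p = 0.00285). The conditions did not overlap in either, and both calls held without any 1 library. Rrm2, the small subunit of ribonucleotide reductase, was at 47639, 41200.5, 42829 and 44198 in wild-type and 42179.7, 44482, 45327 and 45268 in silenced libraries (log2 fold change 0.01, SE 0.0464, adjusted p = 0.853), with full overlap, and Rrm1 had a log2 fold change of -0.003. The sign of Rrm2 turned under TMM and equal totals.

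Of 20 other genes of nucleotide supply, a list chosen with earlier results of these data known, 3 rose, 1 fell and 16 did not pass, against 18.4% higher and 14.8% lower over all genes. Dut, the dUTPase that supplies dUMP, was at 19141 ± 923 in wild-type LEC and 22521 ± 593 in siL-DHX15-LEC (log2 fold change 0.24, SE 0.0404, adjusted p = 0.00124). Dctd, the dCMP deaminase that also supplies dUMP, was at 5107 ± 197 in wild-type LEC and 6003 ± 167 in siL-DHX15-LEC (log2 fold change 0.23, SE 0.0401, adjusted p = 0.00124). Both lie upstream of Tyms in the pathway and both rose without overlap. The ratio of Tyms to Dut was 0.536 ± 0.0194 in wild-type LEC and 0.365 ± 0.00547 in siL-DHX15-LEC, another pair chosen after the values were seen. Nme2, a nucleoside diphosphate kinase, rose by 0.16 with overlap (adjusted p = 0.0255), and Dhodh, of pyrimidine synthesis, fell by 0.14 on the log2 scale (adjusted p = 0.0171).

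Transcripts of both E-type cyclins fell, and E2f1 did not pass. Ccne2 was at 2131, 2579.9, 2465 and 2869.9 normalized counts in wild-type and 1270.1, 1290.4, 1651 and 2251 in silenced libraries (log2 fold change -0.67, SE 0.157, adjusted p = 0.00722). Its libraries overlapped, silenced replicate 4 lying above wild-type replicate 1, and without each library in turn the log2 fold change ran from -0.84 to -0.57 with the call kept. Its transcripts have a GC content of 35.4%, and with the trend subtracted the log2 fold change was -0.43 (adjusted p = 0.00166). Ccne1 was at 3267, 2641, 2894 and 3056 in wild-type and 2470.5, 2613, 2632 and 2578 in silenced libraries (log2 fold change -0.20, SE 0.0603, adjusted p = 0.0244), without overlap, and its call was lost without wild-type replicate 1 or 4 or silenced replicate 1 (adjusted p 0.0530 to 0.0729). E2f1, the transcription factor, was at 9816, 9566, 9747 and 9647 in wild-type and 10269, 10280.3, 9840.1 and 9082 in silenced libraries (log2 fold change 0.02, SE 0.0429, adjusted p = 0.697). The silenced libraries spread on both sides of the wild-type ones. Its sign turned with equal totals and with the trend subtracted.

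Pif1, a helicase that unwinds G-quadruplexes and long flaps and acts at telomeres, had the smallest adjusted p of the 48 genes. It was at 2963, 2924, 2932 and 2866 normalized counts in wild-type and 1817, 1807, 1820.4 and 1897 in silenced libraries (log2 fold change -0.67, SE 0.0393, adjusted p = 1.04e-06), a level 37.2% lower. Within each condition the libraries lay close together, and the gap between the conditions was wider than either spread. The log2 fold change stayed between -0.69 and -0.66 without each library in turn, and under equal totals and the trend subtraction it was -0.74 and -0.67. The gene lies at chr9:65587160-65595967 on GRCm38.

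**Figure D4:**
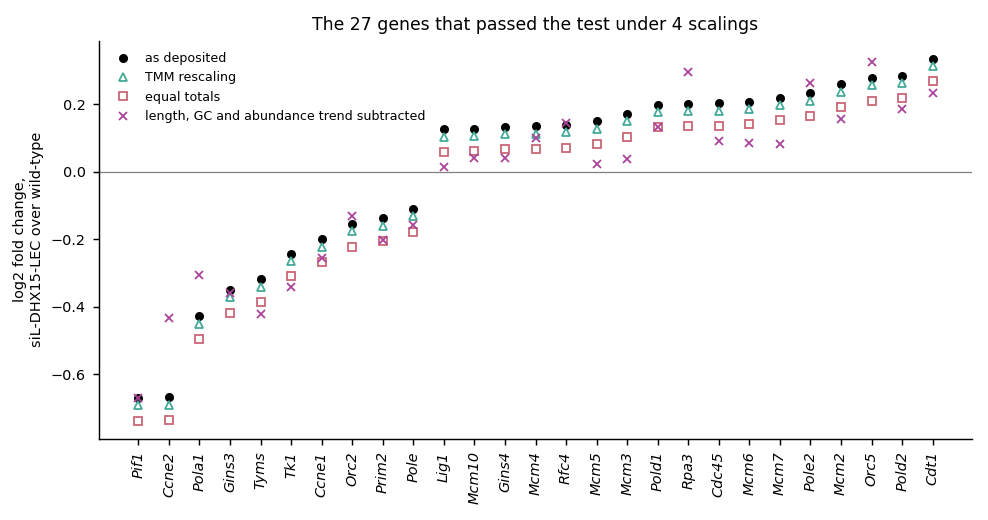
Log2 fold changes of the 27 genes that passed the test, with the values as deposited (black), after TMM rescaling (triangles), after rescaling to equal totals (squares) and with each library's trend with length, GC content and abundance subtracted (crosses). All keep their sign, the rises of Lig1, Mcm5, Mcm3, Mcm10 and Gins4 shrinking to under 0.05 in the last of these.

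The libraries that lay nearest to the other condition were often the same. In 13 of the 17 genes that rose, silenced replicate 4 was the lowest of the silenced libraries, and in 13 wild-type replicate 1 was the highest of its own. In the 10 genes that fell, silenced replicate 4 was the nearest to wild-type in 5 and wild-type replicate 2 the nearest to the silenced libraries in 6. Silenced replicate 4 is also the library with the most remaining Dhx15. The part of this in the fold changes was not tested.

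The table is resolved by isoform, and 229 of 272 isoforms of these genes had a mean of at least 10 normalized counts. Of them 18 were higher and 9 lower at an adjusted p of 0.05, in 23 genes, against 10.4% of all 50198 isoforms tested (6.61% higher and 3.83% lower). By annotation these were 17 higher and 6 lower of 102 protein-coding isoforms, 1 higher and 2 lower of 83 retained introns, and 0 higher and 1 lower of 13 targets of nonsense-mediated decay (NMD). Of 31 other processed transcripts limma, edgeR and DESeq2 each called 0, and limma gave 6 an unadjusted p under 0.05. Of the NMD targets, limma gave 2 such a p as higher, edgeR called 0 as higher and DESeq2 called 1. Mostly the single dominant coding isoform moved with its gene, as Mcm2-001 (99.6% of the Mcm2 total in both conditions; log2 fold change 0.26, adjusted p = 0.00667) and Cdt1-001 (log2 fold change 0.34, adjusted p = 0.00425) did. Not every gene sum was mainly coding. In wild-type LEC, isoforms not annotated as protein-coding carried 67.9% of Rfc2, 54.4% of Orc4 and 45.5% of Lig1. Tk1 was the only gene with isoforms called both ways, and its isoforms were singled out after their values were seen. The coding Tk1-001 fell (log2 fold change -0.25, adjusted p = 0.0239), while Tk1-006, a retained-intron transcript, rose (log2 fold change 0.53, adjusted p = 0.0107) and carried 1.44% ± 0.149 in wild-type LEC and 2.46% ± 0.204 in siL-DHX15-LEC of the gene's normalized counts. Its shares were 1.40, 1.51, 1.59 and 1.25% in the wild-type and 2.66, 2.29, 2.28 and 2.62% in the silenced libraries, without overlap. Tk1-006 holds 457 bases at chr11:117821640-117822096 that are not in Tk1-001.

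In Tyms the main isoform Tyms-001 (log2 fold change -0.42, adjusted p = 0.00360) and the NMD-annotated Tyms-002 (log2 fold change -0.70, adjusted p = 0.0136) both fell. The most abundant isoform of Pif1, the coding Pif1-001, fell (log2 fold change -1.10, adjusted p = 0.0184), and its share of the gene was 38.1% ± 3.04 in wild-type LEC and 29.6% ± 10.3 in siL-DHX15-LEC, with overlap. Tyms-001, Tyms-002 and Pif1-001 were also chosen after their values were seen. At the stricter adjusted p of 0.001, limma called 0 of the members' isoforms (68 at an unadjusted p under 0.05), against 0.287% of all isoforms it tested. At the same threshold edgeR called 0 of the members' isoforms and DESeq2 called 19. The share of all isoforms that DESeq2 called is not given here, so its 19 cannot be read as an excess.

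Isoform usage, the share of an isoform in its gene, was tested in the 21 members with at least 2 isoforms above 5% of the gene total, and 3 were called (Orc6, Cdc6 and Mcm10), against 16.5% of 6676 genes. Orc6-001, the main coding isoform, made up 87.4, 88.4, 86.9 and 88.1% of Orc6 in the wild-type and 92.4, 91.7, 91.4 and 91.0% in the silenced libraries, and Orc6-002 made up 8.58, 6.68, 7.55 and 8.01% and 4.22, 4.97, 5.53 and 5.92% (usage of the gene, Simes adjusted p = 0.0142). No library overlapped. Orc6-002 lacks 130 bases at chr8:85301109-85301238 that are part of Orc6-001, and its coding sequence is 558 bases against 786.

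Cdc6-003, an NMD-annotated isoform, made up 6.38, 6.39, 7.36 and 5.52% of Cdc6 in the wild-type and 4.92, 5.12, 4.88 and 4.92% in the silenced libraries (Simes adjusted p = 0.017), beside Cdc6-002, the main coding isoform, at 74.62% ± 0.997 in wild-type LEC and 76.02% ± 1.51 in siL-DHX15-LEC. The shares of Cdc6-003 did not overlap and those of Cdc6-002 did. Cdc6-003 holds 235 internal bases at chr11:98917910-98918144 that Cdc6-002 lacks, and its coding sequence is 1251 bases against 1767. Mcm10-006 made up 84.3, 84.7, 85.2 and 84.9% of Mcm10 in the wild-type and 86.9, 86.7, 86.8 and 86.0% in the silenced libraries, and Mcm10-001 13.02, 12.94, 12.90 and 13.24% and 11.15, 10.82, 11.46 and 12.07% (Simes adjusted p = 0.0218). These isoforms have the same coding length of 2655 bases and differ at both ends, Mcm10-001 running 1010 bases further downstream. With a variance per isoform in place of 1 per gene, Orc6 still passed (adjusted p = 0.0334), whereas Cdc6 (0.168) and Mcm10 (0.0625) did not. The Orc6 call was kept without any 1 library. That of Cdc6 was lost without wild-type replicate 3 or silenced replicate 3 or 4 (adjusted p 0.0515 to 0.0767), and that of Mcm10 without wild-type replicate 3 or 4 or silenced replicate 1, 2 or 3 (0.0562 to 0.0760). The calls depended on the minimum share. With none, each call was lost (adjusted p = 0.309 for Orc6, 0.0773 for Cdc6 and 0.111 for Mcm10) and 5 other members were called (Tk1, Rrm1, Prim2, Mcm7 and Rfc5, named after their values were seen). When isoforms needed a mean of 50 and a 10% share, Mcm10 passed (0.0136), Cdc6 did not (0.896) and Orc6 could not be tested, Orc6-002 lying under 10%.

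**Figure D5:**
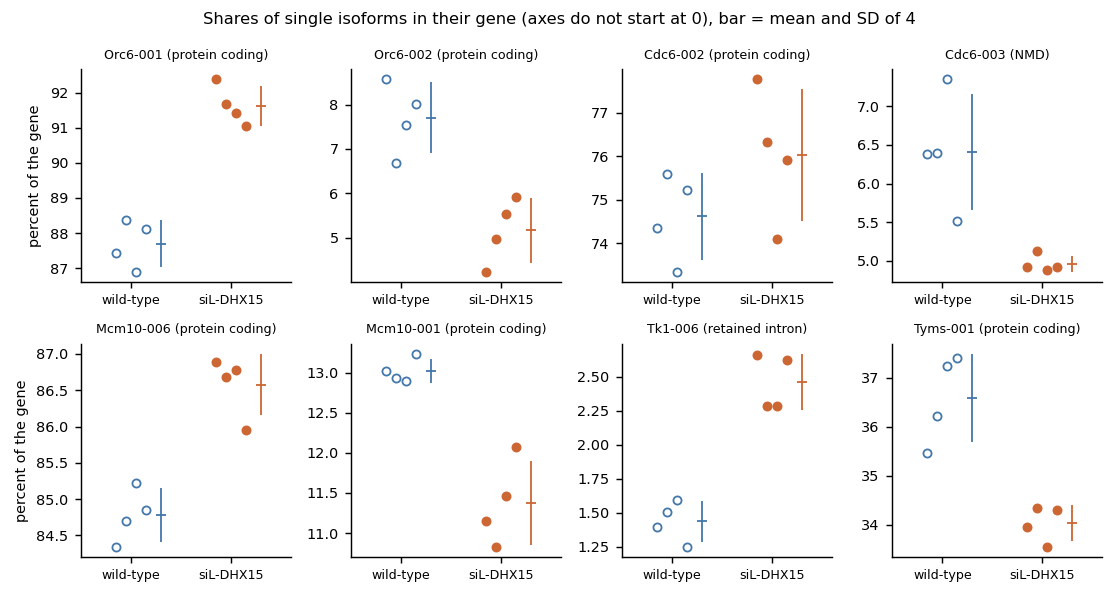
Percent of a gene's normalized counts carried by 1 isoform, in each library (open blue, wild-type LEC; filled orange, siL-DHX15-LEC), with the mean and SD of 4; the axes do not start at 0. The shares of Orc6-001, Orc6-002, Cdc6-003, Mcm10-006, Mcm10-001, Tk1-006 and Tyms-001 do not overlap between conditions, and those of Cdc6-002 do.

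Beside the members, 121 further genes of replication and its control were counted, on lists chosen with earlier results known: 27 were higher, 13 lower and 81 did not pass, with a median log2 fold change of -0.01. Over all genes 33.2% were called (18.4% higher and 14.8% lower), about the same share as in these lists. Among genes with a mean of at least 1000, 40.5% were called (26.4% higher and 14.0% lower), a larger share than in these lists. Of 33 other fork and origin proteins, 6 rose and 5 fell. Mcm8, a helicase related to the MCM ring, was at 3348 ± 198 in wild-type LEC and 4128 ± 159 in siL-DHX15-LEC (log2 fold change 0.30, SE 0.0491, adjusted p = 0.000889), and Recql4, a helicase that takes part in origin firing, was at 9454 ± 599 in wild-type LEC and 12921 ± 1802 in siL-DHX15-LEC (log2 fold change 0.44, SE 0.0847, adjusted p = 0.00238). Pold4, the small subunit of polymerase delta, rose by 0.23 (adjusted p = 0.00364). Cdc7, the kinase that phosphorylates the MCM ring at origin firing, fell by 0.18 on the log2 scale (adjusted p = 0.00658).

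Of 39 G1/S regulators, 12 rose and 3 fell, against 18.4% and 14.8% of all genes (26.4% and 14.0% of those with a mean of at least 1000). Of 7 genes on the list that encode inhibitors of cyclin-dependent kinases, a subgroup that was not planned, 4 rose and 3 did not pass (Cdkn1c, Cdkn2c and Cdkn2d, log2 fold changes -0.23, -0.11 and -0.05). Cdkn1a (p21) was at 3715 ± 144 in wild-type LEC and 5049 ± 244 in siL-DHX15-LEC (log2 fold change 0.44, SE 0.0461, adjusted p = 6.67e-05), and Cdkn2a was at 59939 ± 1227 in wild-type LEC and 70633 ± 3498 in siL-DHX15-LEC (log2 fold change 0.24, SE 0.0403, adjusted p = 0.00121). Cul4a, of the ubiquitin ligase that destroys Cdt1 in S phase, rose by 0.15 (adjusted p = 0.00581). E2f7, a repressor of E2F targets, fell by 0.21 on the log2 scale (adjusted p = 0.00165). The other 9 risers were Cdk4, Ccnd1, Ccnd3, Cdkn1b, Cdkn2b, Ddb1, Rbl2, E2f4 and Lin52, and the other 2 that fell were Ccna2 and E2f3.

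Of 13 genes of chromatin replication, 3 rose and 1 fell, against 18.4% higher and 14.8% lower over all genes (26.4% and 14.0% of those with a mean of at least 1000). Ssrp1 of the FACT histone chaperone (0.21, adjusted p = 0.00233), Tonsl (0.15, adjusted p = 0.0169) and Dnmt1, the maintenance DNA methyltransferase (0.13, adjusted p = 0.0194) were higher. Hat1, which acetylates new histone H4, was lower (-0.19, adjusted p = 0.00477). Of 16 fork checkpoint genes, 3 rose and 3 fell, against the same shares over all genes. Chek2, a checkpoint kinase, was at 3266 ± 106 in wild-type LEC and 4322 ± 276 in siL-DHX15-LEC (log2 fold change 0.40, SE 0.0504, adjusted p = 0.000197). Wee1 and Rad1 rose by 0.17 and 0.16, and Brca1 fell by 0.16 with overlap (adjusted p = 0.0187, 0.03 and 0.0398).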

How the data were processed

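The 8 libraries, 4 of wild-type LEC and 4 of siL-DHX15-LEC, were stranded, poly-A selected and read from both ends. Mapping (STAR 2.5.2a, GRCm38), quantification of GENCODE M12 isoforms (RSEM 1.2.28) and scaling (DESeq2 1.18) were done by the authors, who deposited normalized counts, a signal for every isoform in every library. Within a library all values are whole multiples of 1 step (0.794 to 1.70; 100% within 0.1 of a step), which gave the whole reads used for edgeR and DESeq2. Percent values (duplicates) and other values (lane numbers) were used as deposited, per the file headers, from the sequencing statistics.

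Isoforms were summed to genes. Features averaging at least 10 normalized counts entered limma 3.58.1 under R 4.3.3, on the log2 scale after adding 1, with the variance modelled on abundance. Tests were two-sided, and p-values were adjusted over all features by Benjamini-Hochberg and called at 0.05. Fold changes are on that scale. Usage was tested with diffSplice and Simes p-values. Levels per kb sum each isoform over its length in GENCODE M21. Alternatives were pseudocounts of 0.5 and 5, other filters, TMM, equal totals, no variance trend, edgeR 4.0.16, DESeq2 1.42.0, other thresholds, other gene values, the subtraction of each library's trend with length, GC content and abundance (splines, 4 df), and leaving out each library. The scripts were tested on simulated data. Positions are from GENCODE M21 and promoters from RefSeq, GRCm38.p6.

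The members and lists were chosen with earlier results of these data known. Values in all libraries are given for the 3 genes of smallest p in each role group, for the largest rise and fall and, added after their values were seen, for Pole and Pola1, isoforms for genes that passed the usage test, and up to 4 genes of smallest p from each further list. Other isoforms and the ratios of partner genes were chosen after their values were seen.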

Additional observations from a re-analysis of the deposited data

Results flagged for a closer look

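Within a condition, the highest or lowest of the 4 libraries was compared with the rest for the 48 genes and for 6 isoform shares, 108 groups in all, and 4 stood apart by a gap that took up nearly the whole range of the condition. Chance alone does so in about 1 of 20 groups. For Tyms, silenced replicate 2 was the highest of its condition at 8434 normalized counts, the others lying between 8115 and 8150.0, all below every wild-type library. For Pif1, silenced replicate 4 was the highest at 1897, the others lying between 1807 and 1820.4. Rfc3, a clamp loader gene that did not pass the test, was lowest in silenced replicate 4 at 5361, against 5681 to 5742 in the others. The share of Cdc6-003 was highest in silenced replicate 2 at 5.12% of the gene, against 4.88% to 4.92%. In none of these did the library that stood apart cross into the values of wild-type LEC, apart from Rfc3, where the conditions overlapped.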

How the results depend on the processing

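All 27 called members kept their sign under every alternative, and pseudocounts of 0.5 and 5, a mean of at least 50, TMM, edgeR and protein-coding isoforms alone kept all 27 calls. Of the counts reported (members 17 higher and 10 lower; other replication genes 27 and 13; members' isoforms 18 and 9; usage 3), these moved by more than 1.5 times. Equal totals gave 10 members higher, 10 and 33 other genes, and 11 and 17 isoforms. Limma without the trend gave 6 members lower, 16 and 7 other genes, and 6 and 5 isoforms. An adjusted p of 0.01 gave 10 and 5 members, 12 and 4 other genes, 5 and 2 isoforms and 0 genes for usage with diffSplice (7 at an unadjusted p under 0.05), and 0.001 gave 0 and 0 isoforms with limma (68 at an unadjusted p under 0.05). With the length, GC and abundance trend subtracted there were 11 and 16 members and 32 other genes lower. The shares of all genes called under the alternatives are not given here. No filter on low values gave 8 other genes lower, DESeq2 21 isoforms lower, and usage was called in 1 gene (Mcm10) with a mean of 50 and 10% of the gene and in 5 with no minimum share, none of them Orc6, Cdc6 or Mcm10. Leaving out each library gave 12 to 18 members higher and 5 to 11 lower, 13 to 32 and 6 to 25 other genes, 10 to 20 and 3 to 11 isoforms, and usage in 1 to 3 genes. The fewest members were called without wild-type replicate 4 (18 of the 27 kept). Of the members given with all their values, signs turned only in some that had not passed: Rrm2 (-0.0094 with TMM, -0.00999 with edgeR, -0.054 with equal totals, -0.074 with the trend subtracted, and -0.018 to 0.052 when each library was left out), Rpa1 (-0.038 with equal totals and -0.109 with the trend subtracted), E2f1 (-0.043 and -0.046 under the same), Rfc2 (-0.017 with the trend subtracted) and Rpa2 (-0.031 to 0.024 when each library was left out). The causes were not tested. No paired analysis was possible because the labels give no replicate numbers shared by the conditions. Shifts of about 0.1 on the log2 scale lie near the limit of 4 libraries a condition, and isoforms of low count carry the widest errors.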
